A study of Mus musculus with 4 samples.

Results

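The 35 genes described here encode complement and coagulation factors and their regulators, most of them plasma proteins made by the liver. They were chosen by name and located with GENCODE vM21 on GRCm38, and they make up 35 of the 21938 protein-coding genes on chromosomes 1 to 19, X and Y. Chromatin accessibility (ATACseq) and occupancy by the histone variant H2A.Z (ChIPseq) were profiled in the livers of male C57Bl/6 mice aged 8-12 weeks, fed a normal diet and harvested between 9am and noon. WT mice were Uhrf1 fl/fl without Cre. Uhrf1hepKO mice were Uhrf1 fl/fl with Alb:Cre, in which the albumin promoter drives Cre and so deletes Uhrf1 in hepatocytes. Whether other liver cells keep the gene was not checked here. Uhrf1 is a factor that maintains DNA methylation at replication. Each genotype and assay had 1 library, so no spread between mice is known, no difference between genotypes was tested, and all intervals cover counting error alone.

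Complement is a cascade of plasma proteases and pore-forming proteins. The classical pathway starts from C1r and C1s and the lectin pathway from mannose-binding lectins and the MASP proteases, and both cleave C4 and C2. The cascade then converges on C3 and ends in the membrane attack complex of C5b to C9. Coagulation is a parallel protease cascade in which the contact factors and the tissue factor arm converge on factor X and prothrombin, protein C and protein S restrain it, and plasmin dissolves the clot. Hepatocytes are the main source of most of these proteins, whereas von Willebrand factor (Vwf) and thrombomodulin (Thbd) are known as endothelial products. ATACseq marks DNA that a transposase can reach, and H2A.Z is a variant of histone H2A that replaces it in nucleosomes beside many start sites.

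The peak lists held 10582 ATACseq peaks in WT and 10764 in Uhrf1hepKO, and 51450 and 47135 H2A.Z peaks. The label of liver could be checked only weakly from peaks. Of 5 hepatocyte markers found in the annotation, 0 had an ATACseq peak near the start site in WT and 1, Alb, in Uhrf1hepKO, and 1 had an H2A.Z peak in WT and 0 in Uhrf1hepKO. Of 6 endothelial markers, 0 had a peak of either assay near the start site in either genotype, while in the gene body 4 had H2A.Z and 2 an ATACseq peak in each genotype. For the Kupffer cell, cholangiocyte and stellate cell markers the number near the start site was 0 or 1 in each list. In a whole liver, fewer cells of a type and less signal per cell cannot be told apart.

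H2A.Z, rather than accessibility, was the feature seen at most complement and coagulation genes. In WT, 25 of the 35 genes (71.4%, Wilson 95% interval 54.9 to 83.7) had an H2A.Z peak less than 5 kb from the transcription start site (TSS), as did 52.8% of all protein-coding genes. In Uhrf1hepKO it was 26 of 35 (74.3%, 57.9 to 85.8), beside 51.0%. An ATACseq peak lay there at 8 of the 35 genes in WT (22.9%, 12.1 to 39.0) and at 5 in Uhrf1hepKO (14.3%, 6.26 to 29.4), beside 30.2% and 27.9% of all protein-coding genes. The interval of the genes included the background share in both ATACseq lists, and lay above it in both H2A.Z lists. This rests on the weaker peaks, since without the peaks under the median fold of each list the H2A.Z shares were 45.7% (30.5 to 61.8) in WT and 57.1% (40.9 to 72.0) in Uhrf1hepKO, beside 44.7% and 42.7% of all protein-coding genes.

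Most of these genes have start sites with few CpG dinucleotides. The median was 13 CpGs within 500 bp of the TSS, from 2 at Kng1 to 75 at F3, beside a median of 41 for all protein-coding genes. Fewer than 20 were counted at 30 of the 35 genes, and the 5 others were C2, F3, Pros1, Thbd and Proc. Among all protein-coding genes, 7648 (34.9%) had so few. In that class an H2A.Z peak near the TSS was found at 20.2% of genes in WT and 19.2% in Uhrf1hepKO, and an ATACseq peak at 7.2% and 7.26%. Of the 30 complement and coagulation genes of the class, 21 had H2A.Z in WT (70.0%) and 22 in Uhrf1hepKO (73.3%), and 6 and 4 had an ATACseq peak. Without the peaks under the median fold, 13.7% of the class had H2A.Z in WT and 13.1% in Uhrf1hepKO. All 35 genes together stood at 45.7% and 57.1% there. For ATACseq the class had 3.32% and 3.61%, beside 2.86% of the 35 genes in each genotype. The class holds genes of every tissue, expressed in liver or not, and expression was not analysed here.

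**Figure D1:**
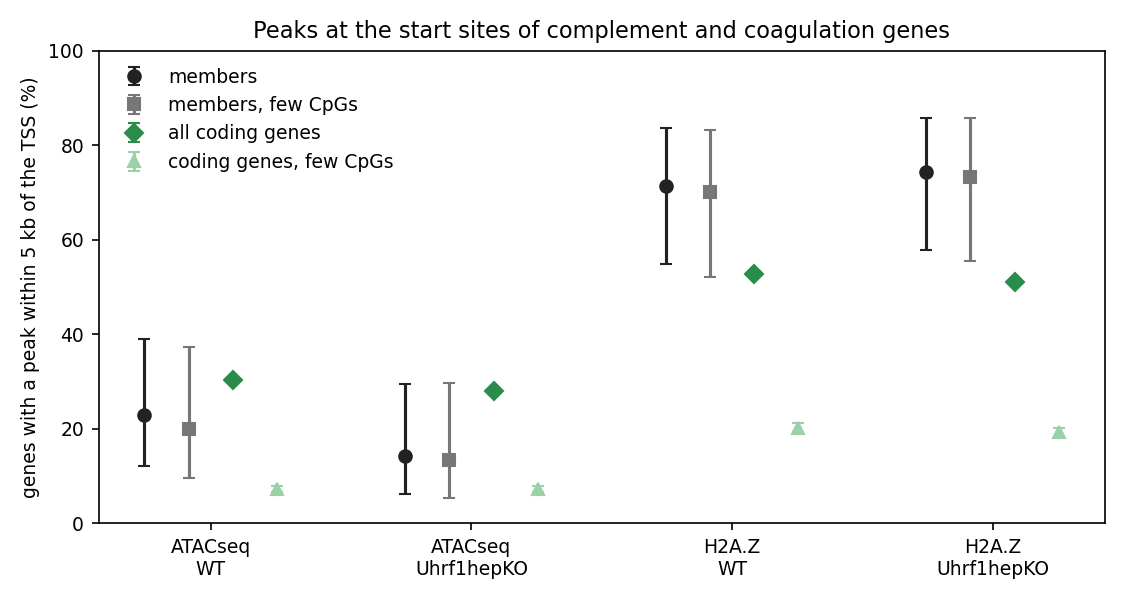
Share of genes (%) with a peak at most 5 kb from the TSS in each of the 4 libraries, for the 35 complement and coagulation genes (members), the 30 of them with fewer than 20 CpGs, all protein-coding genes and protein-coding genes with fewer than 20 CpGs. Bars are Wilson 95% intervals. The black points stand at 71.4% and 74.3% in H2A.Z, above both backgrounds, and at 22.9% and 14.3% in ATACseq, below all protein-coding genes and above those with few CpGs.

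H2A.Z without an ATACseq peak was the most frequent arrangement. It was found at 18 of the 35 genes in WT (51.4%, against 25.0% of all protein-coding genes) and at 22 in Uhrf1hepKO (62.9%, against 26.0%). Both assays had a peak at 7 genes in WT and 4 in Uhrf1hepKO, backgrounds 27.8% and 25.0%. An ATACseq peak without H2A.Z was seen at 1 gene in each genotype, Mbl1 in WT and C3 in Uhrf1hepKO, backgrounds 2.37% and 2.81%. No peak of either assay was listed at 9 genes in WT and 8 in Uhrf1hepKO, backgrounds 44.8% and 46.2%. For C6, F10, Thbd and Vwf that held in both genotypes.

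By pathway, H2A.Z was present at all 4 classical pathway genes (C1ra, C1s1, C2, C4b), both complement inhibitors (Cfi and C4bp), both genes of the tissue factor arm (F3 and F7) and all 3 fibrinolysis genes (Plg, Cpb2, Hrg) in both genotypes. The contact factors F11, F12, Klkb1 and Kng1 had it at 4 of 4 in WT and 3 of 4 in Uhrf1hepKO. The terminal complement genes C6, C8a, C8b, C8g and C9 had it at 4 of 5 and 3 of 5, the anticoagulants Proc, Pros1, Proz and Thbd at 2 of 4 and 3 of 4, and the common pathway genes F2, F5, F10 and F13b at 2 of 4 in each. The lectin pathway genes Mbl1, Mbl2, Masp1 and Masp2 had it at 1 of 4 in WT and 3 of 4 in Uhrf1hepKO. Complement as a whole counted 12 of 17 genes in WT and 13 of 17 in Uhrf1hepKO, and coagulation with fibrinolysis 13 of 18 in each. The share of all protein-coding genes was 52.8% in WT and 51.0% in Uhrf1hepKO, so that counts such as 2 of 4 and 3 of 5 stand near the background, and single groups are too small to be set apart from it.

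**Figure D2:**
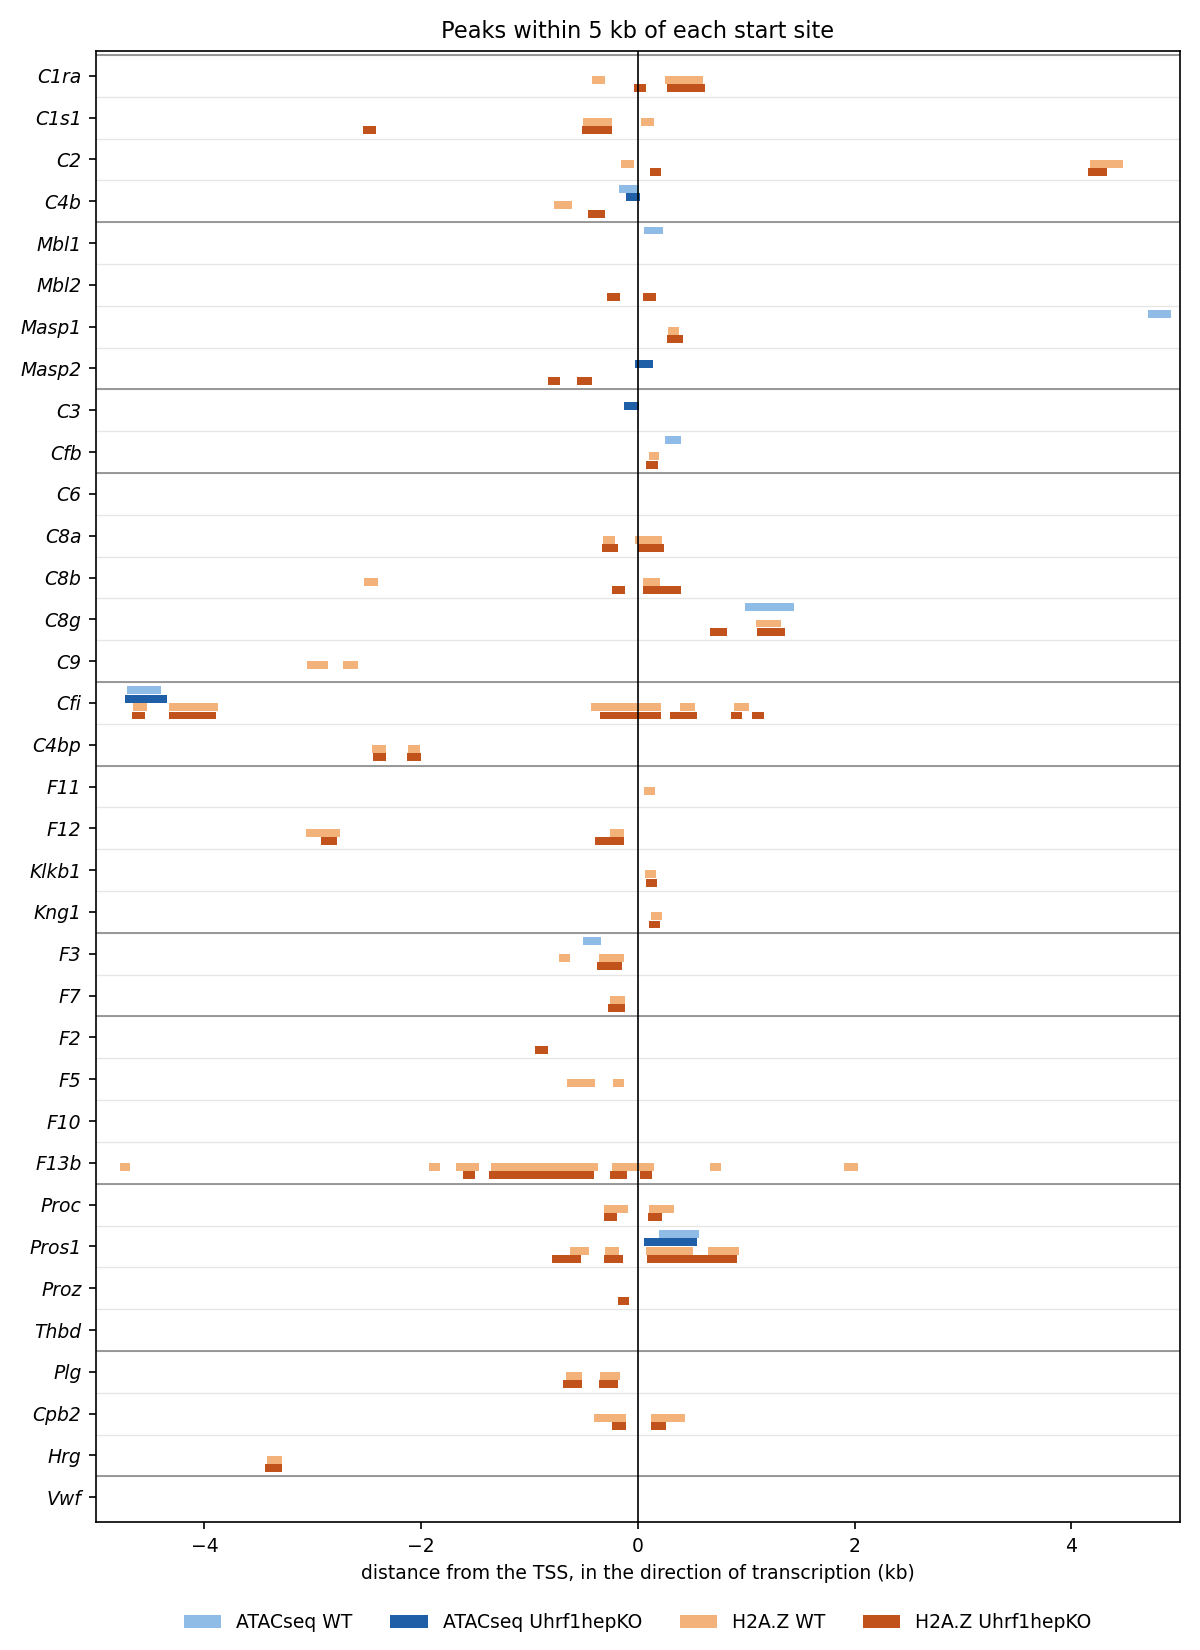
Every peak within 5 kb of the TSS of each of the 35 genes, drawn to scale, with the direction of transcription to the right and distance in kb. Light and dark blue bars are ATACseq peaks in WT and Uhrf1hepKO, light and dark orange bars are H2A.Z peaks, and grey lines separate the pathway groups. Orange bars sit at most genes in pairs of both genotypes, blue bars at few, and C6, F10, Thbd and Vwf are empty.

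The classical pathway proteases C1ra and C1s1 lie 29954 bp apart on chromosome 6, measured between start sites. C1ra had its strongest peak over exonic and intronic sequence, with a summit 323 bp downstream of the TSS in WT and 369 bp in Uhrf1hepKO, and folds over background of 7.31 and 7.67. The fold is the pileup of reads over the background as the peak caller gives it. In the H2A.Z lists these folds fall on even steps that give the number of reads at the summit, here 29 (exact Poisson 95% interval 19.4 to 41.6) and 32 (21.9 to 45.2). C1s1 had its strongest peak upstream, at -304 bp in WT with 23 reads (14.6 to 34.5) and at -295 bp in Uhrf1hepKO with 33 reads (22.7 to 46.3). The intervals overlap at both genes. WT showed H2A.Z summits on both sides of the start at each gene. In Uhrf1hepKO the second peak of C1ra covered the TSS, with its summit at 41 bp and 22 reads, and the second peak of C1s1 lay at -2496 bp with 24 reads. RefSeq places the C1ra start 216 bp downstream of the start used here. The C1ra summits lie on both sides of that RefSeq start in both genotypes.

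C4b, which encodes complement C4, was the classical pathway gene with an ATACseq peak, and the peak covered its TSS in both genotypes, with a fold of 3.92 in WT and 3.80 in Uhrf1hepKO. H2A.Z lay farther upstream there, at -634 bp with 15 reads in WT and at -358 bp with 19 reads in Uhrf1hepKO, and these peaks did not overlap. At C2, the substrate of C1s and the MASP proteases, the annotated gene start lies about 16 kb upstream of where 3 of its 8 transcripts begin. H2A.Z peaks were found at the annotated start in each list, at -95 bp in WT and 148 bp in Uhrf1hepKO, and these did not overlap. Intronic peaks that did overlap had summits at 4249 bp in WT (22 reads) and 4233 bp in Uhrf1hepKO (24 reads). Others that overlapped lay at 11653 bp (19 reads) and 11609 bp (16 reads). Further H2A.Z peaks stood near the downstream starts, with summits 15916 bp into the gene in WT (20 reads) and 15915 bp (20 reads) and 16320 bp (25 reads) in Uhrf1hepKO, where the nearest annotated coding start is that of Gm20547.

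In the lectin pathway, Mbl1 and Mbl2, the mannose-binding lectins, differed in what was listed. Mbl1 had an ATACseq peak 56 bp downstream of its TSS in WT (fold 3.88), none in Uhrf1hepKO, where the nearest stood 9456 bp from the TSS, and no H2A.Z within 5 kb in either. Mbl2 had no ATACseq peak within 200 kb and H2A.Z in Uhrf1hepKO alone, with a peak on each side of the TSS at -226 bp (23 reads) and 89 bp (20 reads). Masp2, a protease that cleaves C4 and C2, had an ATACseq peak over its TSS in Uhrf1hepKO (fold 3.37) and 2 H2A.Z peaks upstream at -781 bp (22 reads) and -483 bp (19 reads), with no peak of either assay within 11 kb in WT. Masp1, the related protease, had an H2A.Z peak with 14 reads in each genotype, at 312 bp in WT and 311 bp in Uhrf1hepKO, and an ATACseq peak in an intron 4711 bp downstream in WT (fold 3.80). Measured to the annotated gene starts, these peaks lie nearer to the neighbouring gene Rtp4 than to Masp1. The distances were 149 and 108 bp for H2A.Z against 281 and 273 bp, and 4187 against 4711 bp for ATACseq. Other Masp1 transcripts start 165, 167 and 219 bp into the gene. The last of these starts is nearer to the H2A.Z peaks than the Rtp4 start is. The H2A.Z peaks near the Masp1 start had low pileups, of 14 reads. Mbl2 and Masp2 had 23 and 22 reads at their strongest summits in Uhrf1hepKO, where the median of the genes was 23. All of these are presence calls in 1 library. The lowest pileup called was 11 reads in WT and 12 in Uhrf1hepKO, so the missing peaks do not show that H2A.Z was absent.

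C3, the protein on which all complement pathways converge, had no H2A.Z peak within 19 kb in either genotype. An ATACseq peak covered its TSS in Uhrf1hepKO (chr17:57228130-57228264, 135 bp, fold 3.72), and in WT the nearest ATACseq peak was 19352 bp away. The 250 bp upstream of the C3 start, chr17:57228137-57228386 on the minus strand, are printed here 5′ to 3′ because the peak ends inside them. The capitals mark a match to TTGCNNAA, a loose form of the site bound by C/EBP factors, and the match lies under the peak:
C3 promoter: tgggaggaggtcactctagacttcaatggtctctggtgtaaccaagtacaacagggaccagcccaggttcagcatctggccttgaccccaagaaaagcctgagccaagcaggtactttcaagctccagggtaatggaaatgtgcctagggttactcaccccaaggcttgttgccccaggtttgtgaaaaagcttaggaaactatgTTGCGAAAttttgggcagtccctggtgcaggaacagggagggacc

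The promoter letters of the genes were searched more widely for short forms of sites known for liver and core promoter factors, on both strands of the 250 bp upstream of the TSS. RefSeq promoter entries matched 25 of the 35 genes, and the search was limited to these, without C2, C4b, Masp1, Cfb, Cfi, Kng1, Proc, Thbd, Plg and Vwf. TTGCNNAA was found at 7 of the 25 (28.0%), namely C1ra, C1s1, C3, C9, F11, Klkb1 and Hrg, and at 9.23% of all protein-coding genes. TATAAA was found at 1 of 25, Klkb1 (background 11.5%), and TGTTTAC, a forkhead site, at 1 of 25, F11 (2.67%), where it does not overlap the TTGCNNAA match. CAAAGTCCA for HNF4, TTGCGCAA for C/EBP and the HNF1 palindrome were found at 0 of 25, with backgrounds of 0.337%, 0.155% and 0.0%. TTGCGCAA is contained in TTGCNNAA. The backgrounds were counted over all protein-coding genes, without the limit to RefSeq entries. They were not counted among genes with few CpGs, the class of most of these genes. A match is a match of letters and no measured binding.

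Cfb, the serine protease of the alternative pathway, had an ATACseq peak in exonic sequence in WT, 250 bp from the TSS (fold 3.47, the lowest of the genes in that list), and an H2A.Z peak at 146 bp in WT (17 reads) and 145 bp in Uhrf1hepKO (20 reads). Among the genes of the terminal pore, C8a and C8b had H2A.Z within 200 bp of the start on the downstream side in both genotypes. The upstream peak of C8a, at -262 bp in WT and -285 bp in Uhrf1hepKO, had 22 reads (13.8 to 33.3) in WT and 34 (23.5 to 47.5) in Uhrf1hepKO, the highest ratio of folds among the genes (1.45), and these intervals still overlap. C8g had an ATACseq peak in WT and H2A.Z in both genotypes 1207 to 1229 bp into the gene, and these peaks lie nearer to the start of the neighbouring gene Fbxw5, 23 bp away in the case of the ATACseq peak. C9 had 2 H2A.Z peaks in WT, at -3014 bp and -2651 bp, and in Uhrf1hepKO the nearest was 5316 bp from the TSS, just outside the window.

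Cfi, the protease that inactivates C3b and C4b, carried 5 H2A.Z peaks in WT and 6 in Uhrf1hepKO. A peak of 647 bp in WT and 566 bp in Uhrf1hepKO covered the TSS with 29 and 32 reads, and a further peak in an intron had 29 and 34. A pair of H2A.Z peaks more than 4 kb upstream, with 33 and 25 reads in WT and 30 and 29 in Uhrf1hepKO, lies nearest to the start of Gar1, a neighbouring gene. The ATACseq peaks at Cfi, with folds of 6.05 in WT and 4.09 in Uhrf1hepKO, cover that start of Gar1 and not the start of Cfi. C4bp, which encodes a C4b-binding cofactor of factor I, had H2A.Z upstream, at -2063 bp with 21 reads and -2399 bp with 25 in WT, and at -2056 bp with 25 and -2369 bp with 28 in Uhrf1hepKO.

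In the contact pathway no gene had an ATACseq peak. F12 had H2A.Z at -198 bp with 26 reads in WT and at -200 bp with 21 in Uhrf1hepKO, and a stronger peak at -2858 bp with 35 reads (24.4 to 48.7) in WT and at -2852 bp with 33 (22.7 to 46.3). Klkb1, plasma kallikrein, had a peak at 120 bp with 18 reads in WT and at 140 bp with 23 in Uhrf1hepKO, and Kng1, kininogen, at 166 bp with 19 and 138 bp with 18. F11 lies next to Klkb1, 4657 bp away, and its peak at 116 bp (18 reads) was listed in WT alone, with the nearest H2A.Z in Uhrf1hepKO 22709 bp away.

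F7, which binds tissue factor to start coagulation, had 1 peak in each genotype and among the highest H2A.Z of all. The summit lay at -178 bp in WT with 35 reads (24.4 to 48.7, fold 8.77) and at -203 bp in Uhrf1hepKO with 45 reads (32.8 to 60.2, fold 10.7). No ATACseq peak was within 15 kb in either genotype. F10 and Proz follow F7 on chromosome 8, with start sites 11274 and 34880 bp away. F10 had no peak within 11 kb in any list, and Proz had an H2A.Z peak at -147 bp (20 reads) in Uhrf1hepKO alone. F3, tissue factor, has the most CpGs of the genes. In WT it had an ATACseq peak upstream (fold 3.99), which met an H2A.Z peak at -194 bp with 20 reads. Both lie nearer to the annotated start of Gm43823 than to that of F3. The distances were 208 against 343 bp for ATACseq and 0 against 126 bp for H2A.Z. In Uhrf1hepKO the H2A.Z peak was at -180 bp with 17 reads and the nearest ATACseq peak 381023 bp away. The ATACseq peak, chr3:121723035-121723194 on the plus strand, held no match to any of the motifs and 4 CpGs in 160 bp, and the 250 bp next to the start held 24:
F3 upstream ATACseq peak: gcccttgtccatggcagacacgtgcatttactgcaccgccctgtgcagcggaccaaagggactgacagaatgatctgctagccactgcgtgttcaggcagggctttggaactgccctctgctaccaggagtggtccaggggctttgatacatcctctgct

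F13b, the carrier subunit of factor XIII, which crosslinks fibrin, held the widest H2A.Z peak of the genes in each genotype. A peak of 987 bp with its summit at -776 bp and 39 reads (27.7 to 53.3) in WT had a counterpart of 964 bp with 41 reads (29.4 to 55.6) in Uhrf1hepKO. Peaks at least as wide made up 0.385% of the WT list and 0.518% of the Uhrf1hepKO list. Next to it, a 383 bp peak over the TSS with 43 reads (31.1 to 57.9) in WT stood where Uhrf1hepKO had a pair of separate peaks, at -167 bp with 26 reads (17.0 to 38.1) and at 77 bp with 25 (16.2 to 36.9). The ratio of folds, 0.565 for the second of these, was the lowest of the genes, and the intervals overlap. In all, 7 H2A.Z peaks were listed around F13b in WT and 4 in Uhrf1hepKO. F2, prothrombin, had an H2A.Z peak at -874 bp (22 reads) in Uhrf1hepKO alone, and F5, the cofactor of factor Xa, had peaks at -460 bp (19 reads) and -179 bp (18 reads) in WT alone.

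Among the anticoagulants, Proc (protein C) and Pros1 (protein S, its cofactor) had H2A.Z on both sides of the start in both genotypes. Pros1 was also the one gene with an ATACseq peak just downstream of its own start in both, with folds of 3.85 in WT and 3.56 in Uhrf1hepKO, and H2A.Z overlapped it with 27 reads in each (17.8 to 39.3). The H2A.Z peaks downstream of the start, 437 and 291 bp long in WT, were 1 peak of 824 bp in Uhrf1hepKO. Plg, plasminogen, had a pair of upstream peaks with 21 and 20 reads in WT and 23 and 18 in Uhrf1hepKO. Cpb2, a carboxypeptidase that slows fibrinolysis, had 30 reads at -183 bp and 23 at 162 bp in WT, and 29 at -179 bp and 23 at 186 bp in Uhrf1hepKO. Hrg, histidine-rich glycoprotein, had a peak at -3349 bp in WT with 24 reads and at -3338 bp in Uhrf1hepKO with 23.

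**Figure D3:**
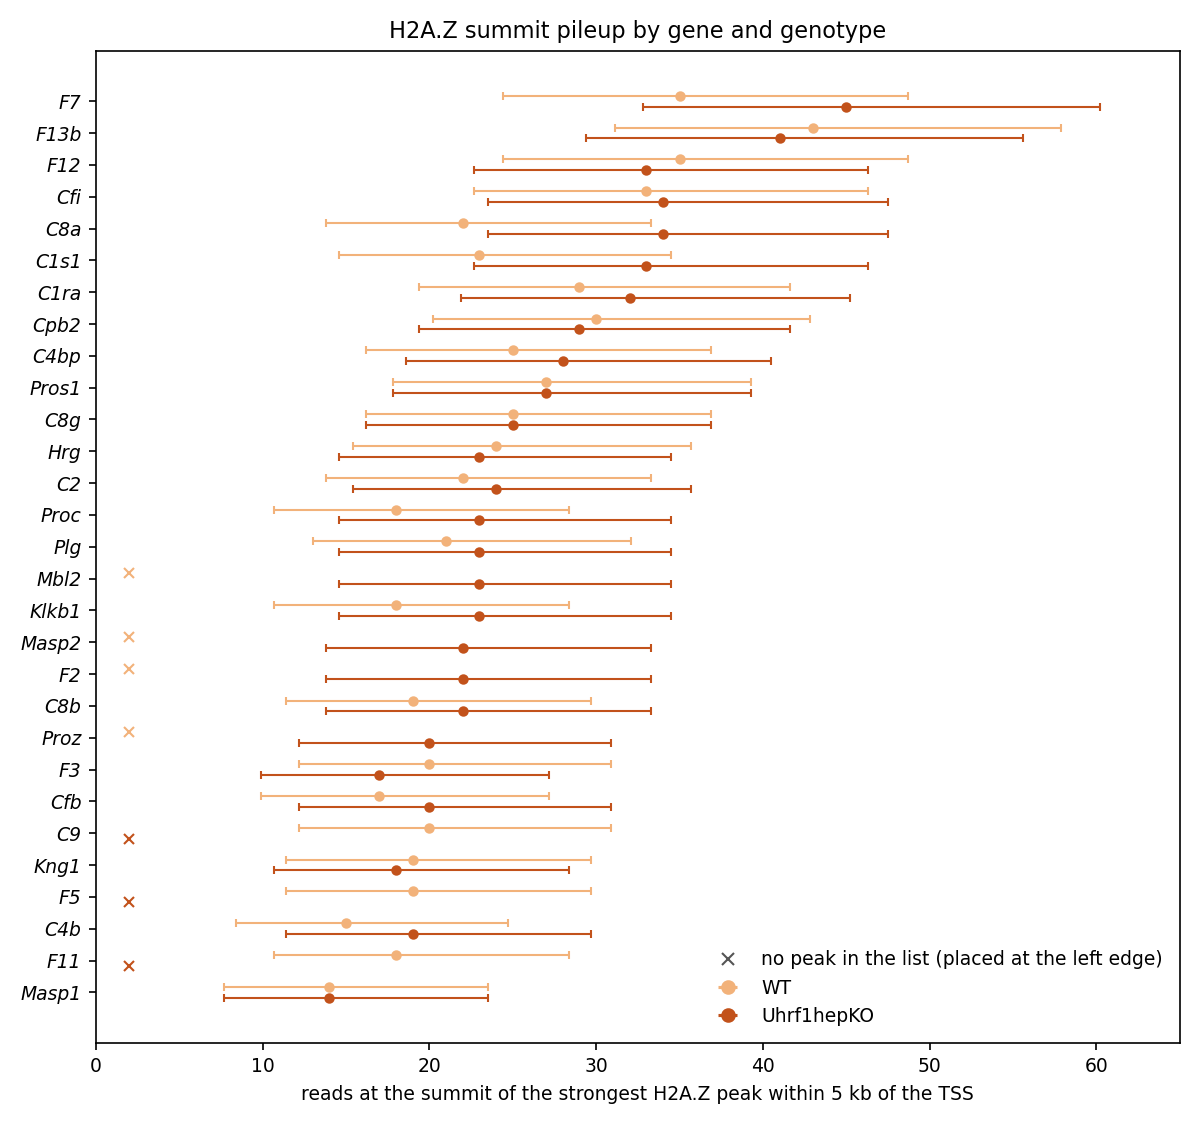
Reads at the summit of the strongest H2A.Z peak at most 5 kb from the TSS for the 29 genes with such a peak in either genotype, in WT (light) and Uhrf1hepKO (dark). Bars are exact Poisson 95% intervals for counting error, and a cross marks a genotype with no peak. F7 and F13b stand highest, with 45 and 43 reads, and at every gene with a peak in both genotypes the intervals overlap. At C2, C4b, C8b, Cfi, F13b and Proc the strongest peaks of the genotypes lie at different sites. That of Cfi in WT lies nearest to the start of Gar1.

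Most H2A.Z peaks at the genes were listed in both genotypes, as were those of protein-coding genes in general. Of 59 peaks at the genes in WT, in the TSS window or gene body, 42 overlapped a peak in Uhrf1hepKO (71.2%, 58.6 to 81.2), beside 73.8% of the WT peaks at all protein-coding genes. They formed 43 overlapping pairs, in which the fold was higher in Uhrf1hepKO in 23 and in WT in 20. The median ratio of folds, Uhrf1hepKO over WT, was 1.01, the same as over all protein-coding genes. The Poisson intervals overlapped in all 43 pairs, and at all protein-coding genes 0.814% of pairs had intervals that did not overlap. Overlap of the intervals of 2 libraries is no test of a difference. Of the 9 ATACseq peaks at the genes in WT, 3 overlapped a peak in Uhrf1hepKO (33.3%, 12.1 to 64.6), at C4b, Pros1 and upstream of Cfi, beside 65.3% for all protein-coding genes. Of the 9 peaks, 8 were below the median fold of the WT list and 2 of these overlapped, beside 44.0% of such peaks at all protein-coding genes. The median fold in the TSS windows was 3.87 in WT and 3.72 in Uhrf1hepKO, beside 4.59 and 4.34 at all protein-coding genes, so most of these ATACseq peaks were weak ones.

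Between genotypes, an ATACseq peak near the TSS was listed in both for 3 genes (background 23.0%), in WT alone for 5, Mbl1, Masp1, Cfb, C8g and F3 (7.19%), and in Uhrf1hepKO alone for 2, Masp2 and C3 (4.85%). H2A.Z was listed in both for 22 genes (48.8%), in WT alone for C9, F11 and F5 (3.95%), and in Uhrf1hepKO alone for Mbl2, Masp2, F2 and Proz (2.19%). The 7 genes with H2A.Z in 1 genotype had 18 to 23 reads at their strongest summit there, where the strongest summits of all the genes ranged from 14 to 45 reads with medians of 22 in WT and 23 in Uhrf1hepKO.

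Of 51 H2A.Z summits in the TSS windows in WT, 13 lay 100 to 500 bp upstream and 13 as far downstream. Within 100 bp of the TSS, a narrower span, there were 2. In Uhrf1hepKO these counts were 15, 13 and 3 of 49. The like counts over all protein-coding genes are not given, so nothing particular to these genes is read from them. Summits within 1 kb stood on both sides of the TSS at 7 genes in each genotype, C1ra, C1s1, C8a, F13b, Proc, Pros1 and Cpb2 in WT and Mbl2, C8a, C8b, F13b, Proc, Pros1 and Cpb2 in Uhrf1hepKO, beside 22.8% and 20.9% of all protein-coding genes. Measured from its RefSeq start, C1ra would have summits on both sides in both genotypes. Among the 30 genes with few CpGs, 5 had summits on both sides in each genotype (16.7%), beside 2.22% and 2.21% of all protein-coding genes of that class. At Cpb2 the uncovered stretch between the flanking peaks was 227 bp in WT and 228 bp in Uhrf1hepKO, and at Pros1 245 and 222 bp. It was 188 and 183 bp at C8a, where it ended upstream of the TSS, but 191 and 282 bp at Proc. So its length was alike in both genotypes at Cpb2, Pros1 and C8a and not at Proc. At F13b the stretches were different pieces of DNA. In WT a peak covered the TSS and 524 bp lay uncovered downstream, between 145 and 670 bp. In Uhrf1hepKO 124 bp lay uncovered across the TSS, between -103 and 22 bp.

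**Figure D4:**
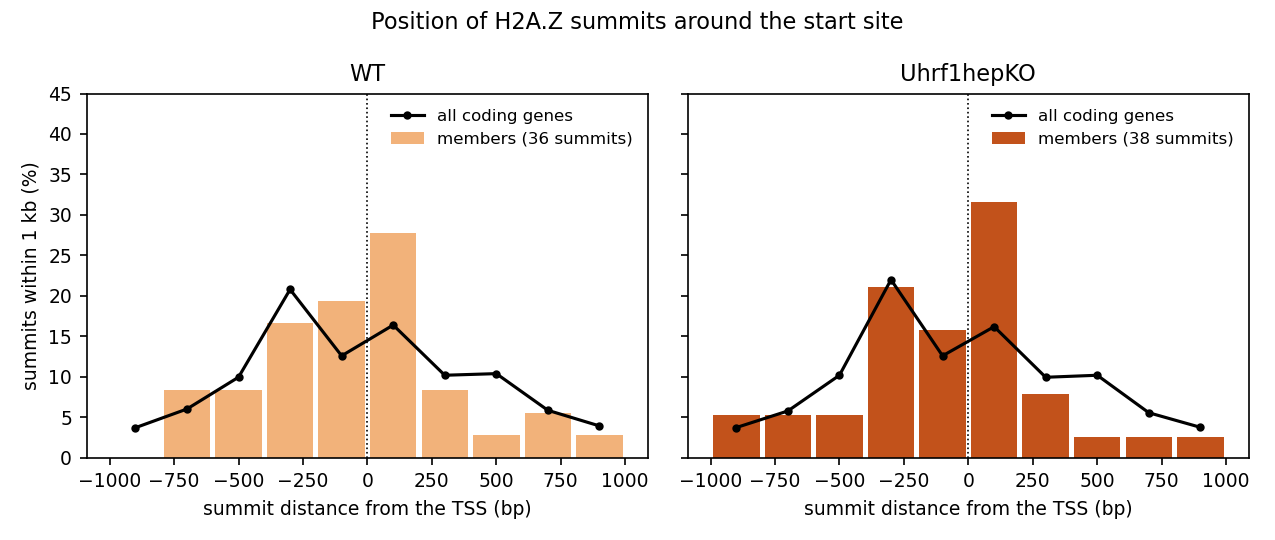
Positions of H2A.Z summits within 1 kb of the TSS, in bins of 200 bp, as a percent of the summits in that span. Bars are the complement and coagulation genes (36 summits in WT, 38 in Uhrf1hepKO) and the black line all protein-coding genes. The tallest bar of each panel, 27.8% in WT and 31.6% in Uhrf1hepKO, is the first 200 bp downstream, where the line stands at 16.4% and 16.2%. Protein-coding genes with few CpGs, not drawn, had 21.9% and 23.1% of their summits there.

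The 250 bp upstream of 4 starts show the placement of H2A.Z peaks in sequence. They were taken from the RefSeq FASTA of GRCm38, are printed 5′ to 3′ in the direction of transcription and end at the base before the TSS, and capitals mark bases under an H2A.Z peak in both genotypes. The windows are chr8:13025784-13026033 (plus strand) for F7, chr14:75242037-75242286 (plus) for Cpb2, chr1:139501452-139501701 (plus) for F13b and chr4:104876399-104876648 (minus) for C8a. The capitals end 117 bp before the start at F7, 108 bp at Cpb2 and 103 bp at F13b. At C8a they fill the first 36 bases and the last 2, where the downstream peak begins:
F7: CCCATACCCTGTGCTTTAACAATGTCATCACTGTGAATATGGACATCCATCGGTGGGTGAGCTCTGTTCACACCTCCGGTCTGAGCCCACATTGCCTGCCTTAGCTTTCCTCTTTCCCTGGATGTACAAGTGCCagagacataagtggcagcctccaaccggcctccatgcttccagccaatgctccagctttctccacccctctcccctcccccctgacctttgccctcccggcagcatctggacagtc
Cpb2: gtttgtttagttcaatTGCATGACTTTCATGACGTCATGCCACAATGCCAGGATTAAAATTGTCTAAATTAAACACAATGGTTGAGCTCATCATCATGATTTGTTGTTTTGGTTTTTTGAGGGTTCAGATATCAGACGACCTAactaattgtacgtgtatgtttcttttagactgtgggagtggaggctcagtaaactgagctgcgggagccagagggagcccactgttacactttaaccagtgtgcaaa
F13b: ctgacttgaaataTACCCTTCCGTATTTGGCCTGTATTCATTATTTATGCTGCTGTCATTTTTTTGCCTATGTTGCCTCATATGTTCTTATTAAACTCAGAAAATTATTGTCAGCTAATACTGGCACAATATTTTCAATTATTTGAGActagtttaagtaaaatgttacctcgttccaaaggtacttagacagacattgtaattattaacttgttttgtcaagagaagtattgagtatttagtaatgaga
C8a: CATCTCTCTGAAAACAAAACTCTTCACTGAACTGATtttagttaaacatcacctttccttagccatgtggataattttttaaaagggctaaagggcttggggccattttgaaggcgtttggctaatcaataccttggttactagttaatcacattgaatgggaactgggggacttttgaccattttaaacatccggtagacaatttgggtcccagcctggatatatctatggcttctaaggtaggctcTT

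In the gene bodies, counted from start to end of each gene, H2A.Z was found at 17 of the 35 genes in WT (48.6%, all protein-coding genes 46.2%) and 16 in Uhrf1hepKO (45.7%, 43.4%), and ATACseq peaks at 7 (all protein-coding genes 30.0%) and 5 (14.3%, 28.4%). Many of these peaks are the downstream peaks described above. Outside the windows, Vwf, which carries factor VIII and tethers platelets, had no peak near its start and 3 H2A.Z peaks that overlapped between the genotypes, centred 26799, 50237 and 57736 bp into the gene in WT. They had 15, 26 and 18 reads in WT and 22, 32 and 21 in Uhrf1hepKO. Masp1 had an H2A.Z peak 56821 bp into the gene in both genotypes (21 and 24 reads). A peak 9165 bp in with 31 reads (21.1 to 44.0) was listed in WT alone, and one 23293 bp in with a fold of 3.2 in Uhrf1hepKO alone.

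**Figure D5:**
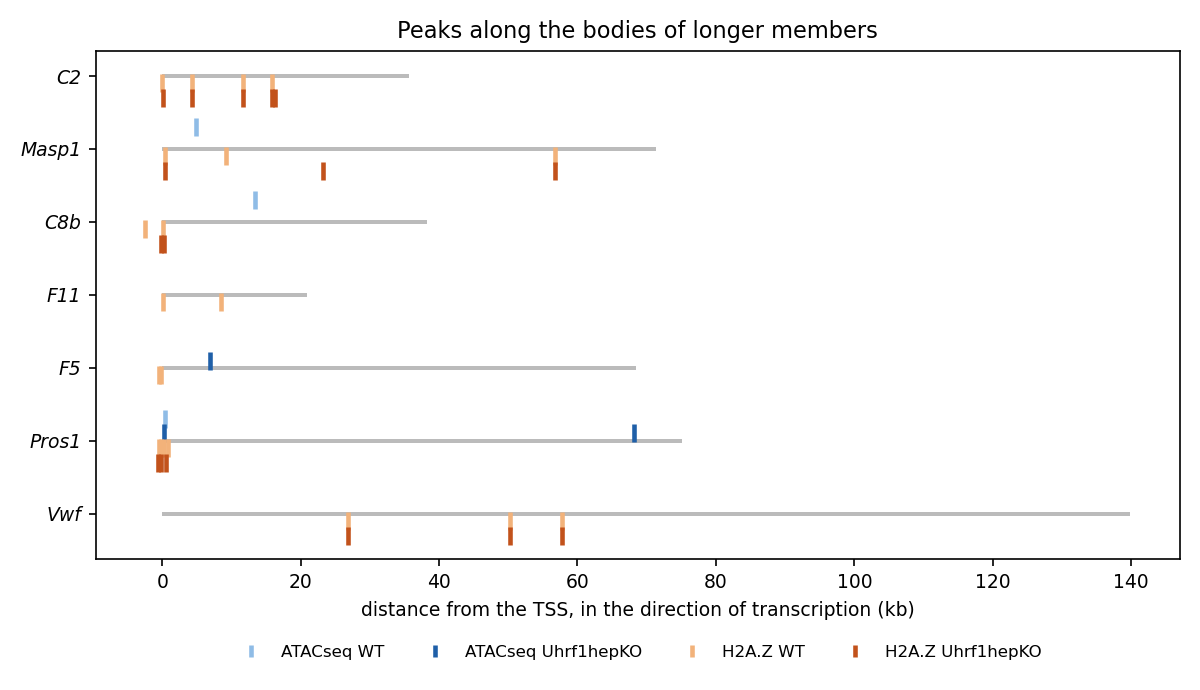
Peaks along 7 longer genes, drawn at the distance of the peak centre from the TSS in kb, with grey lines for the length of each gene. Ticks are ATACseq peaks in WT and Uhrf1hepKO (blue) and H2A.Z peaks (orange). Vwf shows 3 H2A.Z positions common to both genotypes and none at its start, and the ATACseq ticks deep in C8b, F5 and Pros1 appear in 1 genotype each.

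ATACseq peaks outside the windows were seen at 3 genes, each in 1 genotype and each in an intron. C8b had one in WT (13343 bp into the gene, fold 3.87), F5 one in Uhrf1hepKO (6911 bp, fold 3.44) and Pros1 one in Uhrf1hepKO (68227 bp, fold 4.54, the highest ATACseq fold of the genes in that list). None overlapped H2A.Z or held bases that the reference writes in lower case as repeat-masked. They are at chr4:104779594-104779726 for C8b, chr1:164158691-164158808 for F5 and chr16:62922476-62922592 for Pros1, all on the plus strand, and capitals mark a match to TTGCNNAA, found in the C8b peak:
C8b intron: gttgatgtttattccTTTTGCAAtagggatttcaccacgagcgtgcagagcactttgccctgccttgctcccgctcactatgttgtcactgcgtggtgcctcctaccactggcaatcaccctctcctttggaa
F5 intron: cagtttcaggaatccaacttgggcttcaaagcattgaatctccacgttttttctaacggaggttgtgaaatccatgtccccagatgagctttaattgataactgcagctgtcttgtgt
Pros1 intron: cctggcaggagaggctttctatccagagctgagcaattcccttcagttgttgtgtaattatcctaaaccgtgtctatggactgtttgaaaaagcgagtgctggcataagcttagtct

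Of 46 other complement, coagulation and fibrinolysis genes, H2A.Z was near the TSS of 24 in WT (52.2%) and 21 in Uhrf1hepKO (45.7%), beside 52.8% and 51.0% of all protein-coding genes, and ATACseq peaks near 6 and 5, beside 30.2% and 27.9%. Among these, Tfpi, the tissue factor pathway inhibitor, had an H2A.Z fold of 13.6 in WT and 10.7 in Uhrf1hepKO, the highest in both lists, and Cr1l, a complement regulator, had 9.51 and 10.2. The highest ATACseq folds in WT were at Fcna (4.83), Cd55 (4.28) and the fibrinogen gene Fgg (4.27), and in Uhrf1hepKO at Clu (4.63), Fgg (4.26) and C1rl (4.02).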

How the data were processed

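The deposited files are 4 peak lists, 1 for each of 4 libraries. Per the authors, reads went through BWA-MEM (GRCm38.p4) and Picard, and MACS2 called each library on its own, in broad mode at a p-value of 0.05 for ATACseq. The mode for H2A.Z, the MACS2 version, any control library and any shift of ATACseq reads are not given in the sources used here. Among the peaks used, the highest q-values were 0.0997 in WT and 0.0993 in Uhrf1hepKO for ATACseq. For H2A.Z they were 0.05 and 0.0489, so the lists of the assays end at unlike q-values. Submitters' notes name FastQC 0.11.5 and Trimmomatic. The ATACseq reads are described as single-end and the calls as paired-end. Each deposited peak has a score of 10 times the −log10 q-value, a fold and −log10 p- and q-values. The fold is a ratio of pileup to background, averaged over the region for ATACseq and at the summit for H2A.Z. All were made by the authors' caller and not scaled between libraries. For H2A.Z the deposited list also gives the summit. Read depth is not given in the sources used here.

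From chromosomes 1 to 19, X and Y, peaks that overlapped by 1 bp the 5 kb before or after a gene's annotated start in GENCODE vM21, or its body, were assigned to the gene. An H2A.Z fold is (pileup + 1)/(background + 1). Its steps, 0.244 in WT and 0.232 in Uhrf1hepKO, gave backgrounds of 3.10 and 3.30 reads. Of all peaks, 94.2% and 91.9% lay within 0.02 steps of a whole pileup, and 99.4% and 99.5% of those had the deposited p within 5%. All genes are named by pathway role, and of the other pathway genes the 3 of highest fold per list, of which some are not reported here. The members and lists were chosen with earlier results of these data known, as were the comparisons. The class of genes with fewer than 20 CpGs, the Wilson and Poisson 95% intervals and the alternatives below were fixed with the members, and the share of shared peaks below the median fold was added after the values were seen. One hepatocyte marker symbol of 6 was not in the annotation. Overlaps, intervals and pileups were tested on simulated peaks. The scripts ran in Python 3.11.15 with scipy 1.17.1 for intervals and pandas 2.3.3 for tables.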

Additional observations from a re-analysis of the deposited data

How the results depend on the processing

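Of 62 alternative settings over the 10 shares reported, 44 moved the share by less than its interval and 18 by more. The cause was not tested beyond the construction of each alternative, which uses fewer peaks, less of the gene or another rule of overlap. When peaks under the median fold of their list were left out, the share of genes with a peak near the TSS was 2.86% in ATACseq WT, 2.86% in ATACseq Uhrf1hepKO, 45.7% in H2A.Z WT and 57.1% in H2A.Z Uhrf1hepKO, and in the gene body 0.0% in ATACseq WT, 2.86% in ATACseq Uhrf1hepKO and 31.4% in H2A.Z WT. The like shares of all protein-coding genes near the TSS were 18.2% in ATACseq Uhrf1hepKO, 44.7% and 42.7% in H2A.Z and, in ATACseq WT, 4158 of 21938 genes, and they were 18.5%, 17.9% and 34.2% in the gene body. At a q-value of at most 0.01 the ATACseq shares near the TSS were 5.71% in WT and 5.71% in Uhrf1hepKO, and in the gene body 0.0% and 5.71%, beside 24.5%, 21.7%, 24.0% and 21.6%. The H2A.Z counts near the TSS did not move at that q-value. Without the first 5 kb of each gene, the gene body shares were 2.86% and 5.71% in ATACseq WT and Uhrf1hepKO, and 11.4% and 8.57% in H2A.Z, beside 8.6%, 8.99%, 18.7% and 17.7%. The share of WT peaks that overlapped in Uhrf1hepKO became 100% for ATACseq without the peaks under the median fold, where 1 peak was left, and for H2A.Z 57.6% with an overlap of 50% of both peaks and 81.4% with a gap of at most 500 bp allowed. Windows of 1 kb and 500 bp gave 6 and 5 genes for ATACseq WT and 21 and 20 genes for H2A.Z WT, and in Uhrf1hepKO 4 and 4 for ATACseq and 24 and 22 for H2A.Z. In the H2A.Z lists, the interval of the genes included the share of all protein-coding genes (46.0% and 43.2%) for both windows in WT, and lay above it (44.5% and 41.9%) in Uhrf1hepKO. It included that share in both genotypes without the peaks under the median fold. When peaks with a nearer TSS of another coding gene were left out, 5 and 4 genes kept an ATACseq peak in WT and Uhrf1hepKO, and 23 and 24 kept H2A.Z. These distances use the annotated start of each gene. At C8g and Masp1 another transcript start of the gene lies nearer to some of these peaks. No paired analysis was possible because each condition has 1 library, and no replicate could be left out.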
